A study of Rattus norvegicus with 24 samples.

Results

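The 40 genes described here encode the machinery that carries a cell from G2 through mitosis to 2 daughter cells. They are the members of a list of 42 symbols that had a mean of at least 10 normalised read counts in all 6 groups of the study, out of 26404 gene identifiers in the deposited tables; Ccnb2 and Spc24 matched no row by symbol and are not analysed here. The lowest group mean of any member was 92.0 normalised counts, for Cdc25c. By role they are 5 cyclin, CDK1 and CDC25 genes, 8 genes of the Aurora and Polo kinases and their partners, 7 of the spindle checkpoint and anaphase, 6 of the centromere and kinetochore, 8 of spindle motors and cytokinesis, and 6 of chromosome condensation, Mki67 included.

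The cells were INS-1, an insulin-secreting line grown from a rat beta-cell tumour, which divides in culture. The 6 groups of 4 libraries were BMS-21 (a compound known only by its code name) at 1 µM, GLP-1 (the incretin hormone glucagon-like peptide 1, which raises cAMP in beta cells) at 100 nM, and Control (the DMSO vehicle), each after 6 h and after 1 h. All cells had first spent 90 min in medium with 3 mM glucose and received fresh medium with 11 mM glucose together with the agent, so the 1 h groups are an early time in the new medium and not an untreated start. The libraries held 10667350 to 13148970 reads. The beta-cell identity of the line was visible in Ins1, at 8583 to 11695 CPM (counts per 1000000 reads, scaled by the TMM method). Of 13 markers of other pancreas cells, Sst, Ppy, Prss1, Cpa1, Cel, Krt19 and Ptprc stayed at or below 0.243 CPM. Col1a1, Pecam1 and Col3a1 reached 0.251, 0.490 and 0.784 CPM in their highest libraries. Ghrl had 0.974 to 2.39 CPM, Gcg 6.57 to 14.1 CPM and the duct keratin Krt7 46.0 to 85.8 CPM. Whether the 4 replicates of a group came from separate cultures is not stated in the labels, and p-values therefore reflect the spread between these libraries alone. In bulk RNA a larger share of cells in G2 and mitosis and more transcript in each such cell cannot be told apart.

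Entry into mitosis is driven by CDK1 bound to cyclin A or B, after CDC25 phosphatases have removed its inhibitory phosphates. Aurora and Polo kinases build the spindle, the NDC80 complex ties microtubules to the kinetochore, and the spindle checkpoint holds back anaphase until every kinetochore is attached. Then CDC20 turns on the anaphase-promoting complex, securin is destroyed, separase cuts cohesin, and the central spindle directs cytokinesis. Transcripts of these genes are low in G1 and rise towards G2 under the B-MYB, FOXM1 and MuvB proteins, which act through a short promoter element named the cell cycle homology region (TTTGAA or TTTAAA), often near CCAAT boxes bound by NF-Y.

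Promoter windows from RefSeq (build GRCr8, 250 bases before to 50 bases after a gene's start) were at hand for 36 of the 40 members. They were searched on both strands for TTTGAA or TTTAAA (together the cell cycle homology region), for the CCAAT box and for the motif TGACG, the core of the cAMP response element; matches may share bases. A TTTGAA or TTTAAA occurred in 35 of the 36 members (97.2%), against 29.6% of 27457 genes with a window. Within 50 bases of the start it occurred in 23 members (63.9%), against 9.62% of all genes. CCAAT occurred in 26 members (72.2%), against 39.6% of all genes, and 17 members (47.2%) had 2 or more, against 12.2%. TGACG occurred in 13 members (36.1%), against 23% of all genes. For 2 lists described below, 76 other G2 and mitosis genes and 24 S phase genes had a window. In that order, TTTGAA or TTTAAA occurred in 51.3% and 16.7% of them, CCAAT in 55.3% and 62.5%, and TGACG in 36.8% and 50%. The shares of CCAAT and TGACG above those of all genes were thus not particular to the members. Cdc25b, which codes for a CDC25 phosphatase, was the 1 member whose window held neither TTTGAA nor TTTAAA. These matches are a description of the letters in the windows, base composition was not matched, and no binding was measured.

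The 6 windows shown next belong to the 4 members whose BMS-21 response differed between 6 h and 1 h (Ndc80, Cenpf, Nusap1 and Cenpa, described at the end) and to Kif23 and Espl1, which rose more than 2-fold in Control cells. Each is written 5′ to 3′ on the gene's strand, and capitals mark TTTGAA or TTTAAA matches and the CCAAT boxes, on either strand.
Ndc80 (chr9:118887480-118887779, minus strand): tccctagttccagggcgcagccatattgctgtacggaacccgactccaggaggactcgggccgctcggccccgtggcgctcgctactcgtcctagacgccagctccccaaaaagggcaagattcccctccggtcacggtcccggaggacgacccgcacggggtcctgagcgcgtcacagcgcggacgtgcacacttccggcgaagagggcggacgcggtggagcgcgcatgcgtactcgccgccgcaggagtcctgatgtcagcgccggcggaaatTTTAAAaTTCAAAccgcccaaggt
Cenpf (chr13:103760837-103761136, minus strand): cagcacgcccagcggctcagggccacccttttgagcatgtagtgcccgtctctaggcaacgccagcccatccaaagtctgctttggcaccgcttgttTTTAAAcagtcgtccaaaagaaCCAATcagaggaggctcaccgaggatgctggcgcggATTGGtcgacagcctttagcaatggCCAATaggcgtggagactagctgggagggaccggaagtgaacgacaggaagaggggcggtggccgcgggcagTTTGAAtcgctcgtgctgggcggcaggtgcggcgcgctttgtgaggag
Nusap1 (chr3:127057045-127057344, plus strand): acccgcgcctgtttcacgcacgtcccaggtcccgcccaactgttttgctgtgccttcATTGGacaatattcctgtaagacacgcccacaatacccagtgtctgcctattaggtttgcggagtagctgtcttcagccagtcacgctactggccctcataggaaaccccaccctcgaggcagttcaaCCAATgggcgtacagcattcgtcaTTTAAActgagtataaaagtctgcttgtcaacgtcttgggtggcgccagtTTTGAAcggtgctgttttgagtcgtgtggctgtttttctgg
Cenpa (chr6:31431503-31431802, minus strand): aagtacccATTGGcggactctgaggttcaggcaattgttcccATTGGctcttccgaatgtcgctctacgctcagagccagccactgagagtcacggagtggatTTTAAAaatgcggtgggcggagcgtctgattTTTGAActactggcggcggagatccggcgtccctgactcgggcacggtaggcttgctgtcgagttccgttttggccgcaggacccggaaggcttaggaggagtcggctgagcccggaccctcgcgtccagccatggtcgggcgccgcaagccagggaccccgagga
Kif23 (chr8:71320535-71320834, minus strand): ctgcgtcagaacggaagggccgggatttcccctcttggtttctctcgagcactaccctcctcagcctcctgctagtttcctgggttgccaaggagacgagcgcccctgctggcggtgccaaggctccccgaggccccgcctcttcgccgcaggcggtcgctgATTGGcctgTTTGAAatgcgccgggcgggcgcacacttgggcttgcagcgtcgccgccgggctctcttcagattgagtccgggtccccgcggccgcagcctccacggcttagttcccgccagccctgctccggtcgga
Espl1 (chr7:135302466-135302765, plus strand): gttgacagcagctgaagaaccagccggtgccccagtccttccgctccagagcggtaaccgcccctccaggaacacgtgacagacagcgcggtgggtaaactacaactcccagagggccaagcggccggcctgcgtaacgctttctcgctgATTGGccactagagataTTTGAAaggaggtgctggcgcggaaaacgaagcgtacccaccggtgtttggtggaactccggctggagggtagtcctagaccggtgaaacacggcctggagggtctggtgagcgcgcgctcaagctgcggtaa
In Ndc80 the 2 matches lie 26 and 33 bases after the start and no CCAAT is present, while Cenpf has 1 match 2 bases after the start and another at -153, with 3 CCAAT boxes between them. Kif23 and Espl1 have a CCAAT box just before the element, at distances of -88 and -79 bases in Kif23 and -100 and -83 bases in Espl1. Birc5, not shown, also rose more than 2-fold in Control cells (2.02-fold). Its CCAAT box lies at -213 and its element at -8, so the close spacing was not shared by it. Cenpa (2.04-fold) did not share it either, with CCAAT boxes at -242 and -208 and elements at -147 and -116. Kif11, which rose by a log2 fold change of only 0.34, has a CCAAT box at -61 and its element at -35. A link of spacing with the rise was not tested.

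Nearly all mitotic genes were higher at 6 h than at 1 h, in each of the 3 arms. With BMS-21 38 of the 40 members were higher at 6 h (edgeR quasi-likelihood test on the reads of all 24 libraries, Benjamini-Hochberg adjusted p under 0.05), where 30.2% of all 13114 genes tested were higher. With GLP-1 all 40 were higher (29.2% of all genes), and in Control cells all 40 were (26.1% of all genes). The members' median log2 fold change was 0.62 with BMS-21, 0.66 with GLP-1 and 0.70 in Control cells, where the median over all genes was -0.01. The 6 h libraries lay above the 1 h libraries without overlap for 34 members with BMS-21 (26% of all genes), for 39 with GLP-1 (25.5%) and for 39 in Control cells (23%).

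**Figure D1:**
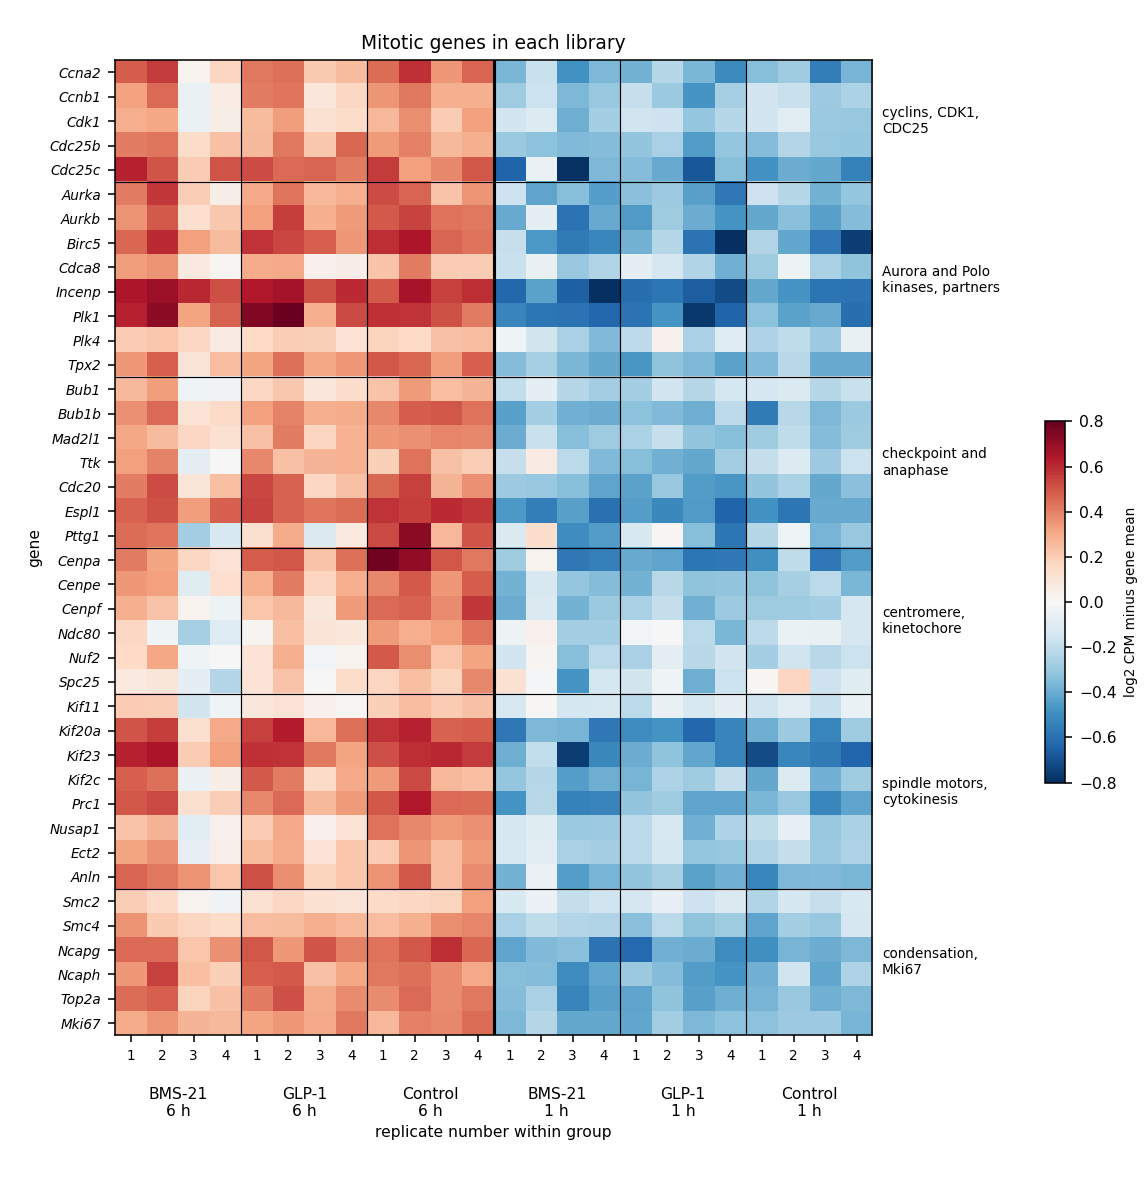
Heat map of the 40 genes (rows, by role) in the 24 libraries (columns, by group and replicate number); colour is log2 CPM minus the gene's mean over all libraries. The 6 h libraries lie above the gene mean (red) in 37 to 40 genes, except BMS-21 replicate 3 with 27 and replicate 4 with 31, and the 1 h libraries lie above it in 0 to 6 genes (otherwise blue); BMS-21 replicates 3 and 4 are the palest of the 6 h libraries, with mean deviations of 0.09 and 0.14, against 0.34 to 0.44 in the 4 Control libraries.

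The order of the roles in Control cells ran from a median log2 rise of 0.82 for Aurora and Polo kinases and their partners through 0.74 for checkpoint and anaphase genes, 0.71 for spindle motors and cytokinesis, 0.69 for condensation genes and 0.63 for centromere and kinetochore genes to 0.62 for cyclins, CDK1 and CDC25, an order that was not tested. Espl1, which codes for separase, had 56.9, 56.0, 57.7 and 56.4 CPM in the Control libraries at 6 h, against 27.3, 25.5, 28.8 and 28.8 CPM at 1 h. Every 6 h library exceeded every 1 h library (log2 fold change 1.04 ± 0.05 SE, adjusted p = 4.51e-17). Incenp, the scaffold of the chromosomal passenger complex, had 87.8, 98.8, 91.5 and 94.2 CPM in the Control libraries at 6 h, against 47.2, 45.1, 41.8 and 41.6 CPM at 1 h. Its groups did not overlap either (log2 fold change 1.08 ± 0.06 SE, adjusted p = 2.79e-16).

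Kif23, a kinesin of the central spindle, had the largest log2 fold change of the 40 members in Control cells. It had 43.1, 45.4, 45.9 and 44.5 CPM in the Control libraries at 6 h, against 18.4, 21.0, 20.4 and 19.5 CPM at 1 h (log2 fold change 1.17 ± 0.09 SE, adjusted p = 2.12e-12), with the lowest 6 h library above the highest 1 h library. Tpx2, which activates Aurora A on spindle microtubules, had 98.3, 95.6, 87.9 and 96.9 CPM in the Control libraries at 6 h, against 54.6, 59.8, 52.6 and 52.6 CPM at 1 h (log2 fold change 0.79 ± 0.06 SE, adjusted p = 7.1e-13). Aurkb, the kinase of the passenger complex, Birc5 (survivin) and Plk1 (Polo-like kinase 1) rose too, by log2 fold changes of 0.85 ± 0.08, 1.02 ± 0.10 and 0.96 ± 0.09 (SE). Cdca8 (borealin) and Plk4, the kinase of centriole duplication, rose least in this family, with 0.49 and 0.40.

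Among the condensation genes the proliferation marker Mki67 had 267, 294, 289 and 303 CPM in the Control libraries at 6 h, against 177, 182, 181 and 172 CPM at 1 h. Its 4 Control values at 6 h all lay above those at 1 h (log2 fold change 0.70 ± 0.04 SE, adjusted p = 2.88e-15). Top2a, the topoisomerase that untangles sister DNA, had 403, 424, 403 and 416 CPM in the Control libraries at 6 h, against 240.1, 251, 238 and 242 CPM at 1 h (log2 fold change 0.76 ± 0.06 SE, adjusted p = 3.77e-13). The condensin subunits Ncapg and Smc4 did the same: Ncapg had 33.9, 35.4, 37.9 and 34.5 CPM in the Control libraries at 6 h, against 17.9, 19.4, 19.1 and 19.6 CPM at 1 h (log2 fold change 0.90 ± 0.07 SE, adjusted p = 4.81e-13). Smc4 had 172, 176, 187 and 189.6 CPM in the Control libraries at 6 h, against 108, 119.6, 117 and 131 CPM at 1 h (log2 fold change 0.61 ± 0.05 SE, adjusted p = 2.12e-12).

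The genes of the CDK1 engine rose as well. Cdk1 rose by a log2 fold change of 0.50 ± 0.07 in Control cells, with 126, 135, 120.4 and 131 CPM in the Control libraries at 6 h, against 94.0, 98.7, 85.1 and 84.6 CPM at 1 h. Its cyclins rose by 0.84 ± 0.09 (Ccna2) and 0.55 ± 0.08 (Ccnb1), and the phosphatases by 0.62 ± 0.06 (Cdc25b) and 0.90 ± 0.11 (Cdc25c). In the checkpoint family the kinases Bub1, Bub1b and Ttk rose by 0.43, 0.81 and 0.46, Mad2l1 by 0.65, the anaphase activator Cdc20 by 0.74 and the securin gene Pttg1 by 0.74 ± 0.14. The smallest rise belonged to Spc25, a subunit of the NDC80 complex. It had 19.2, 20.1, 19.2 and 22.3 CPM in the Control libraries at 6 h, against 17.2, 19.2, 15.2 and 15.9 CPM at 1 h, and the groups overlapped (log2 fold change 0.26 ± 0.10 SE, adjusted p = 0.0248). This call was lost without Control replicate 3 or 4 of 1 h or replicate 4 of 6 h, with adjusted p up to 0.0945.

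The other spindle and cytokinesis genes rose in Control cells by log2 fold changes of 0.91 (Kif20a), 0.92 (Prc1, which crosslinks midzone microtubules), 0.77 (Anln, a scaffold of the contractile ring), 0.64 (Kif2c, a kinesin that depolymerises microtubules), 0.59 (Nusap1, which bundles spindle microtubules), 0.53 (Ect2, which is needed for cytokinesis) and 0.34 (Kif11, the kinesin that pushes spindle poles apart). At the kinetochore the motor gene Cenpe rose by 0.72, Cenpf by 0.71 and Nuf2 by 0.56. Aurka, the kinase of spindle poles, rose by 0.66, and the condensin genes Ncaph and Smc2 by 0.69 and 0.38. All of these were called.

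In the 2 treated arms the largest rise among the 40 members was that of Incenp. It had 98.0, 101, 94.9 and 89.5 CPM with BMS-21 at 6 h, against 40.6, 46.6, 39.7 and 35.3 CPM at 1 h (log2 fold change 1.24 ± 0.06 SE, adjusted p = 7.75e-18), and 97.6, 99.2, 89.0 and 94.7 CPM with GLP-1 at 6 h, against 41.2, 42.0, 39.6 and 38.1 CPM at 1 h (log2 fold change 1.24 ± 0.06 SE, adjusted p = 8.24e-18). The times did not overlap in either arm. Plk1 had 61.6, 66.0, 50.1 and 55.9 CPM with BMS-21 at 6 h, against 28.0, 26.9, 26.8 and 26.0 CPM at 1 h, and 67.2, 69.5, 49.1 and 58.1 CPM with GLP-1 at 6 h, against 26.7, 29.1, 23.5 and 25.9 CPM at 1 h. Its log2 fold changes were 1.12 ± 0.09 with BMS-21, 1.21 ± 0.09 with GLP-1 and 0.96 ± 0.09 in Control cells (SE), with no overlap of the times. Pttg1, the securin gene, had 23.5, 23.1, 14.2 and 15.8 CPM with BMS-21 at 6 h, against 15.8, 19.0, 12.2 and 12.6 CPM at 1 h, and these overlapped (log2 fold change 0.37 ± 0.15 SE, adjusted p = 0.0297). With GLP-1 it had 18.8, 21.2, 15.9 and 18.1 CPM at 6 h, against 15.8, 17.4, 13.6 and 11.5 CPM at 1 h, also with overlap (log2 fold change 0.34 ± 0.15 SE, adjusted p = 0.0481). Leaving out 1 library ended the Pttg1 call in 4 of 8 fits with BMS-21 and in 5 of 8 with GLP-1.

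**Figure D2:**
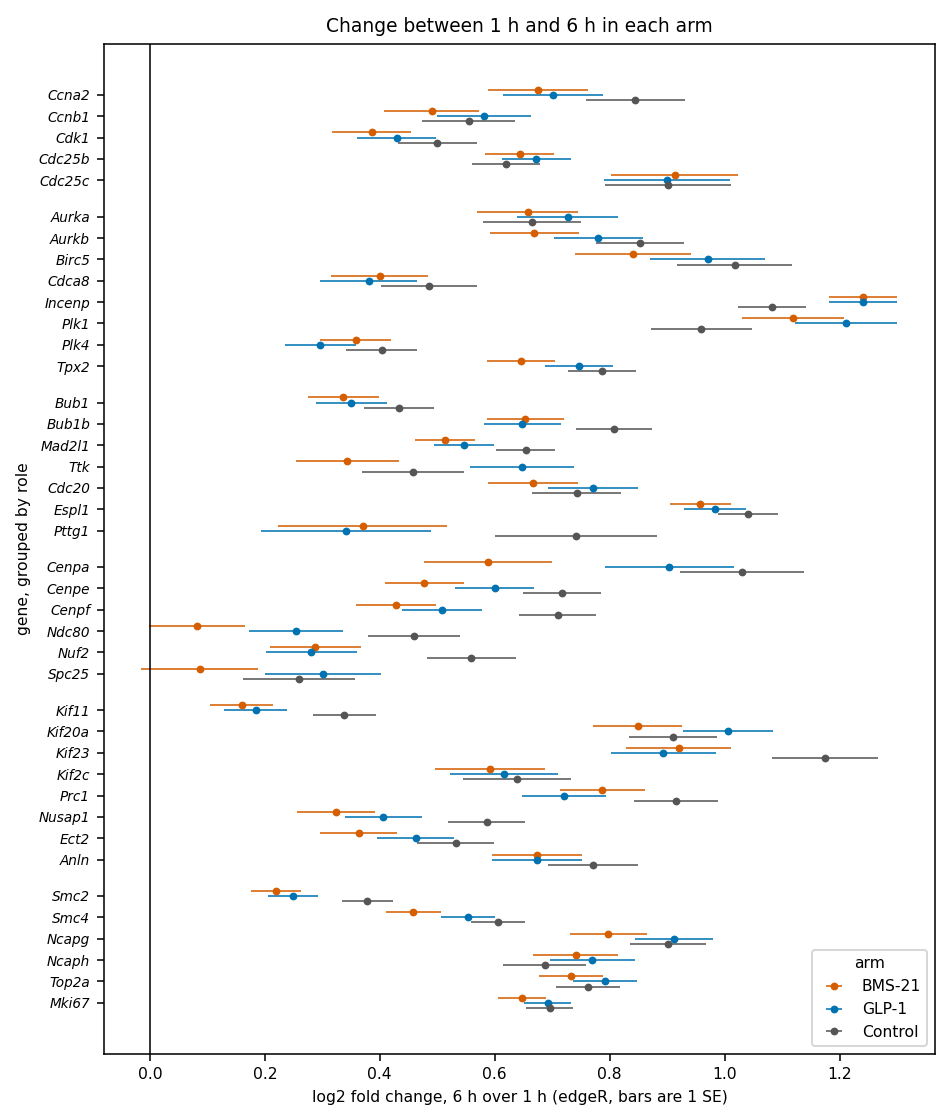
Log2 fold change between 6 h and 1 h (horizontal axis, edgeR; bars are 1 SE) of each of the 40 genes, grouped by role, in the BMS-21, GLP-1 and Control arms. All points lie to the right of 0. Kif23, Incenp, Espl1, Cenpa and Birc5 lie beyond 1 in Control cells (1.17, 1.08, 1.04, 1.03 and 1.02). Among the centromere and kinetochore genes Ndc80 lies at 0.08 with BMS-21, 0.25 with GLP-1 and 0.46 in Control cells.

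Among the centromere and kinetochore genes 4 of 6 were called with BMS-21, against 6 of 6 with GLP-1 and 6 of 6 in Control cells. Their median log2 fold change between 6 h and 1 h was 0.36 with BMS-21, 0.40 with GLP-1 and 0.63 in Control cells. Ndc80, the microtubule-binding subunit that names the complex, had 33.1, 28.8, 24.6 and 27.5 CPM in the BMS-21 libraries at 6 h, against 28.7, 30.2, 24.4 and 24.5 CPM at 1 h. These BMS-21 groups overlapped (log2 fold change 0.08 ± 0.08 SE, adjusted p = 0.407), while in Control cells Ndc80 had 37.3, 36.0, 37.0 and 39.6 CPM at 6 h, against 25.5, 28.5, 28.2 and 26.9 CPM at 1 h, with no overlap (log2 fold change 0.46 ± 0.08 SE, adjusted p = 1.18e-05). Spc25 was the other member not called with BMS-21 (log2 fold change 0.09 ± 0.10 SE, adjusted p = 0.475). Cenpa, the histone H3 variant of centromeres, rose by 0.59 ± 0.11 with BMS-21, 0.90 ± 0.11 with GLP-1 and 1.03 ± 0.11 in Control cells. The rise with BMS-21 was not tested against that with GLP-1. Each agent's rise minus that of Control cells, which is the agent's response at 6 h minus its response at 1 h, was tested (edgeR): for Ndc80 it was -0.38 with BMS-21 (adjusted p = 0.0169) and -0.21 with GLP-1 (adjusted p = 0.238), and for Spc25 -0.17 with BMS-21 (adjusted p = 0.434) and 0.04 with GLP-1 (adjusted p = 0.887). Among the GLP-1 calls, that of Ndc80 was lost without GLP-1 replicate 4 of 1 h and that of Spc25 without GLP-1 replicate 3 of 1 h. In Control cells the call of Spc25 was lost without replicate 3 or 4 of 1 h or replicate 4 of 6 h.

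The rise was present within each replicate number. The median over the 40 members of log2 CPM at 6 h minus 1 h was 0.47 to 0.67 with BMS-21, 0.60 to 0.67 with GLP-1 and 0.65 to 0.72 in Control cells over the 4 numbers. All 40 members were higher at 6 h for each number in Control and GLP-1, and 39 for each number with BMS-21. Over the same interval the summed level of the 13 markers of other pancreas cells was 57.3 to 72.7 CPM with BMS-21 at 6 h, against 78.9 to 90.2 CPM at 1 h, and 68.5 to 83.1 CPM in Control cells at 6 h, against 77.8 to 94.3 CPM at 1 h, most of it Krt7. The part of this change in the mitotic genes' rise was not tested.

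Most other genes of G2 and mitosis were higher at 6 h too. Of 75 measured, 60 were higher and 6 lower with BMS-21 (median log2 fold change 0.49), 60 higher and 4 lower with GLP-1 (median 0.53), and 63 higher and 3 lower in Control cells (median 0.52). Of all genes 30.2% were higher with BMS-21, 29.2% with GLP-1 and 26.1% in Control cells. Depdc1, Cdca2, which recruits a phosphatase to chromosomes at mitotic exit, and the spindle-pole gene Aspm rose by 1.48, 1.14 and 1.06 in Control cells. Cks2, a CDK1-binding subunit, rose by 0.87, and Ube2c, the ubiquitin-conjugating enzyme of the anaphase-promoting complex, by 0.61. Wee1, the kinase that holds CDK1 inactive, was among the 3 lower genes, with a log2 fold change of -0.63 (adjusted p = 1.16e-12, edgeR).

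Of 25 regulators of mitotic transcription, 12 were higher and 7 lower at 6 h with BMS-21, 13 higher and 6 lower with GLP-1, and 13 higher and 6 lower in Control cells. Over all genes 30.2% were higher and 31.4% lower with BMS-21, 29.2% and 30.2% with GLP-1, and 26.1% and 27.1% in Control cells, so the shares of regulators that were lower were near those of all genes. The values that follow are log2 fold changes in Control cells. Mybl2, which codes for B-MYB, rose by 1.16, and Foxm1, the forkhead activator of G2 genes, by 0.59. The atypical repressors E2f7 and E2f8 rose by 0.76 and 0.24, and Lin54, the DNA-binding subunit of MuvB, by 0.20. Cdkn1a, the CDK inhibitor p21, fell by 0.86 on the log2 scale, and Rb1 fell by 0.62. Lin9, E2f1 and E2f4 did not pass the test in Control cells, with log2 fold changes of 0.22, 0.12 and -0.07. E2f1 was lower at 6 h than at 1 h in the treated arms, with -0.17 with BMS-21 (adjusted p = 0.0194) and -0.31 with GLP-1 (adjusted p = 8.49e-05). Mybl2 rose by 0.89 with BMS-21 and 0.94 with GLP-1, Foxm1 by 0.56 and 0.62, and Cdkn1a had -0.84 and -0.77, each past the threshold.

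After 1 h neither agent moved a mitotic gene past the threshold. With BMS-21 none of the 40 members was higher or lower than in Control cells (limma on log2 of the normalised count plus 1, adjusted p under 0.05), where 3.54% of all 12697 genes were higher and 2.37% lower. The same held for GLP-1, where no member passed (4.17% higher and 2.41% lower of 12715). At an unadjusted p under 0.05 there was 1 member with BMS-21 and there were 5 with GLP-1. These unadjusted counts have no share of all genes beside them and are not read as a result. DESeq2 and edgeR also called none. With the replicate number as a block none passed with BMS-21 (6.7% higher and 5.51% lower over all genes), while with GLP-1 1 member was higher and 2 were lower (6.74% and 5.16% of all genes).

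Those 3 genes were Kif20a, Kif23 and Plk1. Kif20a, a kinesin of the central spindle, had 575, 586, 527 and 567 normalised counts with GLP-1, against 623, 667, 569 and 669 in Control cells. The groups overlapped (log2 fold change -0.16 ± 0.06 SE, adjusted p = 0.102; adjusted p = 0.00843 with the replicate block). Kif23 had 273, 288, 269 and 248 with GLP-1, against 219, 250.4, 243 and 232 in Control cells, also with overlap (log2 fold change 0.19 ± 0.07 SE, adjusted p = 0.138; 0.0479 with the block). Plk1 had 318, 346, 279.8 and 308 with GLP-1, against 382, 356, 363 and 315 in Control cells (log2 fold change -0.18 ± 0.07 SE, adjusted p = 0.188; 0.0403 with the block), and with BMS-21 its log2 fold change was -0.14 (adjusted p = 0.302). Over the 40 members the log2 fold changes spanned -0.14 to 0.14 with BMS-21 and -0.18 to 0.19 with GLP-1. In the wider list Fbxo5, which codes for the anaphase-promoting complex inhibitor EMI1, was lower at 1 h, with log2 fold changes of -0.63 with BMS-21 (adjusted p = 9.93e-06) and -0.43 with GLP-1 (adjusted p = 0.000505). It is a single gene named from that list, at a time when 2.37% of all genes were lower with BMS-21 and 2.41% with GLP-1.

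After 6 h some mitotic genes were lower with either agent than in Control cells, by small amounts, and none was higher. With BMS-21 9 of the 40 members were lower (22.5%), where 16.8% of all 12640 genes were lower and 16.8% higher. With GLP-1 9 were lower (22.5%), where 15.6% of all 12641 genes were lower and 16.2% higher. In this fit, without the replicate block, the share of members lowered was near that of all genes. The median log2 fold change was -0.13 with BMS-21 and -0.07 with GLP-1, against 0.00 over all genes in both, and 37 members with BMS-21 and 35 with GLP-1 had a negative value. Both comparisons use the same 4 Control libraries. The groups did not overlap for 8 lower members with BMS-21 (15.9% of all genes) and for 6 with GLP-1 (15.1%). Leaving out 1 library gave 5 to 19 lower members with BMS-21, 5 without BMS-21 replicate 4 and 19 without BMS-21 replicate 2, and 6 to 13 with GLP-1. With the replicate block 21 members were lower with BMS-21 (52.5%, against 19.8% of all genes) and 16 with GLP-1 (40%, against 20.7%).

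Scaling by library totals instead of the deposited factors gave 17 lower members with BMS-21 (24.3% of all genes) and 19 with GLP-1 (23.4%). It moved the calls over all genes to 1510 higher against 3068 lower with BMS-21, and to 1451 higher against 2960 lower with GLP-1, where the deposited factors gave a split of 2125 to 2128 with BMS-21 and of 2044 to 1967 with GLP-1. The summed beta-cell markers were 16528 to 19250 CPM in the BMS-21 libraries at 6 h and 16165 to 17302 CPM in the GLP-1 libraries, against 15122 to 15948 CPM in the Control libraries, and the summed markers of other pancreas cells 57.3 to 72.7 CPM with BMS-21 and 65.7 to 73.5 CPM with GLP-1, against 68.5 to 83.1 CPM in Control cells. Most of the beta-cell sum came from Ins1 and Iapp: of the 8 markers 4 were higher and 2 lower with BMS-21 than in Control cells at 6 h, and 3 higher and 2 lower with GLP-1. Slc2a2, the glucose transporter GLUT2, averaged 1112 CPM with BMS-21 and 1118 CPM with GLP-1, against 1777 CPM in Control cells, and the transcription factor gene Nkx6-1 51.2 CPM with BMS-21 and 51.9 CPM with GLP-1, against 62.0 CPM. The part of either sum in the lower mitotic genes was not tested.

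**Figure D3:**
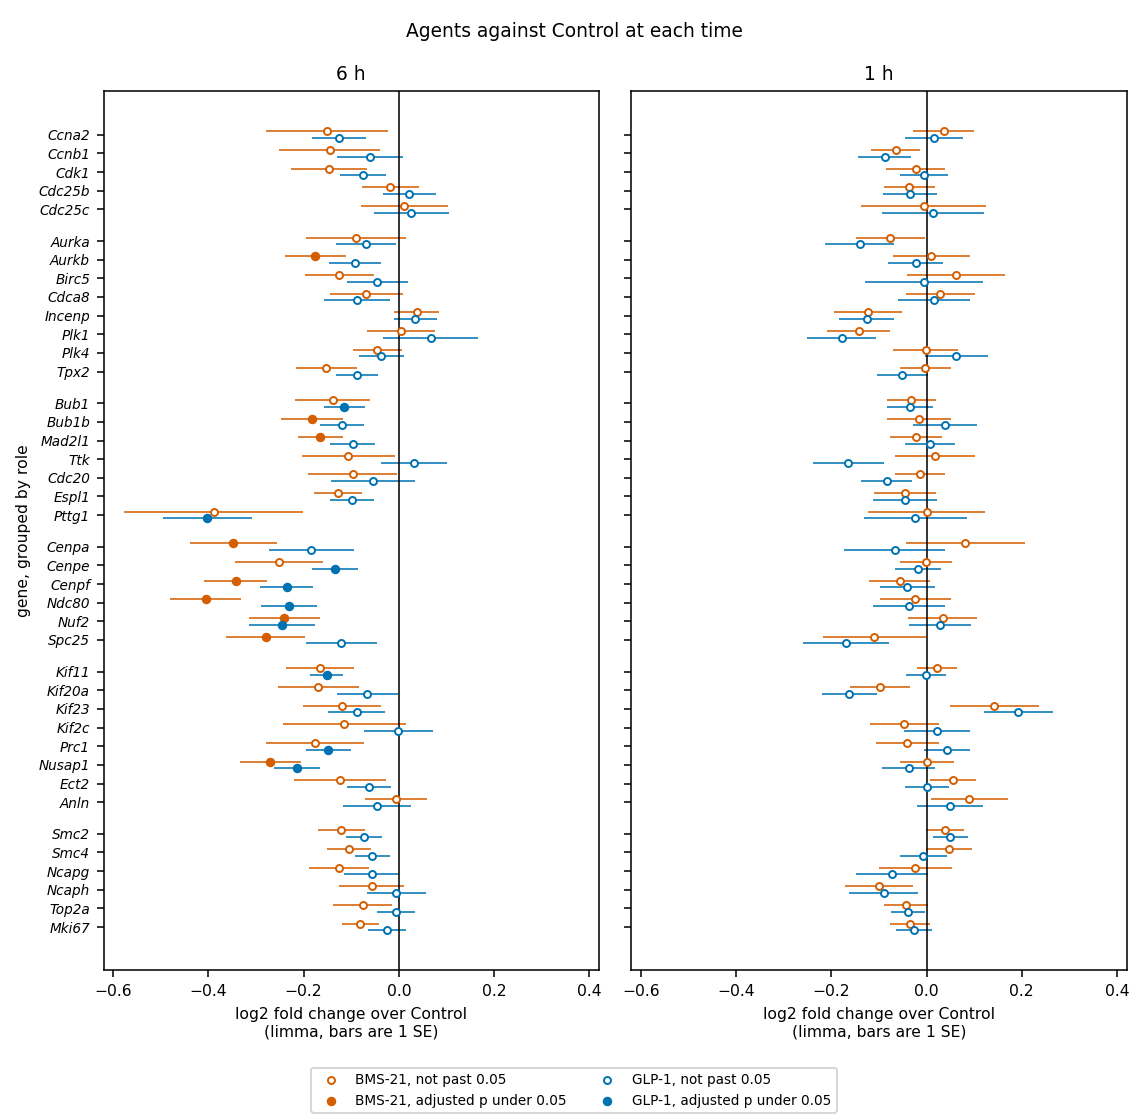
Log2 fold change over Control (horizontal axis, limma on log2 of the normalised count plus 1; bars are 1 SE) of the 40 genes by role, at 6 h (left) and 1 h (right), with BMS-21 and GLP-1. Filled points passed an adjusted p of 0.05: none at 1 h, and at 6 h 9 with each agent, of which 5 with BMS-21 and 4 with GLP-1 were centromere and kinetochore genes.

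Kinetochore genes made up 5 of the 9 lower members with BMS-21 and 4 of the 9 with GLP-1. Of the 6 members of that family 5 were lower with BMS-21 and 4 with GLP-1. None of the 5 cyclin, CDK1 and CDC25 genes and none of the 6 condensation genes passed with either agent. Over all genes 16.8% were lower with BMS-21 and 15.6% with GLP-1, so no call among 5 or 6 genes is near those shares. The families were not tested against each other. With the replicate block 3 of the 5 cyclin, CDK1 and CDC25 genes passed with BMS-21 (Cdk1, Ccnb1 and Ccna2) and 2 with GLP-1 (Ccna2 and Cdk1). Of the 6 condensation genes 1 passed with each, Mki67 with BMS-21 and Smc2 with GLP-1. All were lower, where 19.8% of all genes were lower with BMS-21 and 20.7% with GLP-1 in that fit. Ndc80 at 6 h had 411, 358, 304 and 340.2 normalised counts in the BMS-21 libraries, against 465, 449, 459 and 492 in the Control libraries. The 4 BMS-21 values lie below all Control values (log2 fold change -0.41 ± 0.07 SE, adjusted p = 0.00017). With GLP-1 it had 366, 425, 386 and 382, against 456, 439.9, 451 and 482 in the Control libraries, again without overlap (log2 fold change -0.23 ± 0.06 SE, adjusted p = 0.00465). Normalised counts of the 2 comparisons come from tables scaled separately, so the Control values differ slightly between them.

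Cenpf, a large outer-kinetochore protein whose level peaks in G2, had 708, 682, 591 and 563 normalised counts in the BMS-21 libraries, against 795, 807, 755 and 859.9 in the Control libraries. All BMS-21 values lie below all Control values (log2 fold change -0.34 ± 0.07 SE, adjusted p = 0.000413). With GLP-1 Cenpf had 669, 682, 607 and 724, against 781, 791, 741 and 844 in the Control libraries, with the groups apart as well (log2 fold change -0.24 ± 0.06 SE, adjusted p = 0.00227). Cenpa had 195.6, 183, 165 and 159 normalised counts in the BMS-21 libraries, against 251, 241, 207 and 196.3 in the Control libraries. The highest BMS-21 library was just below the lowest Control library (log2 fold change -0.35 ± 0.09 SE, adjusted p = 0.00531); with GLP-1 the log2 fold change was -0.18 (adjusted p = 0.126; 0.0404 with the replicate block).

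Nuf2, which pairs with NDC80 in the complex, had 412, 457, 359 and 366 normalised counts in the BMS-21 libraries, against 517, 476, 429 and 456 in the Control libraries. The groups overlapped (log2 fold change -0.24 ± 0.08 SE, adjusted p = 0.017), and the call was lost without Control replicate 1 or BMS-21 replicate 3 or 4. With GLP-1 Nuf2 had 391, 440.3, 356 and 369.5, against 507, 467, 422 and 448 in the Control libraries (log2 fold change -0.25 ± 0.07 SE, adjusted p = 0.0102). Spc25 had 223, 227, 199.6 and 179 normalised counts in the BMS-21 libraries, against 239, 251, 239 and 276 in the Control libraries, without overlap (log2 fold change -0.28 ± 0.08 SE, adjusted p = 0.012), a call lost without Control replicate 4 or BMS-21 replicate 4; with GLP-1 it was -0.12 (adjusted p = 0.237). Cenpe, the kinesin that moves chromosomes along spindle fibres, was -0.25 with BMS-21 (adjusted p = 0.0651; 0.000154 with the block) and -0.13 with GLP-1 (adjusted p = 0.0395), the second call being lost in 5 of the 8 fits that left out a library.

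Outside the kinetochore the smallest adjusted p belonged to Nusap1, which binds and bundles spindle microtubules. At 6 h it had 1325, 1366, 1064 and 1156 normalised counts in the BMS-21 libraries, against 1528, 1481, 1432 and 1452 in the Control libraries, with no overlap (log2 fold change -0.27 ± 0.06 SE, adjusted p = 0.0038). With GLP-1 it had 1283, 1374, 1139 and 1201, against 1500.4, 1452, 1406 and 1424 in the Control libraries, also apart (log2 fold change -0.21 ± 0.05 SE, adjusted p = 0.00192). Mad2l1, the checkpoint protein that sequesters CDC20, had 978, 943, 883 and 856 normalised counts in the BMS-21 libraries, against 1009, 1023, 1035 and 1029.9 in the Control libraries, again apart (log2 fold change -0.16 ± 0.05 SE, adjusted p = 0.00874). With GLP-1 its log2 fold change was -0.10 (adjusted p = 0.124; 0.0296 with the block).

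Bub1b, the checkpoint kinase BUBR1, had 725, 769.8, 605 and 622 normalised counts in the BMS-21 libraries, against 735, 789, 792 and 759 in the Control libraries. The groups overlapped, the call (log2 fold change -0.18 ± 0.07 SE, adjusted p = 0.0381) was lost in 5 of the 8 fits that left out a library, and with GLP-1 the value was -0.12 (adjusted p = 0.0547; 0.0154 with the block). Aurkb was the remaining lower member with BMS-21 (log2 fold change -0.18 ± 0.06 SE, adjusted p = 0.0383), also lost in 5 of 8 such fits.

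With GLP-1 the 5 lower members outside the kinetochore were Nusap1, Kif11, Pttg1, Prc1 and Bub1. Kif11, the kinesin that pushes spindle poles apart, had 2259.7, 2285, 2156 and 2141 normalised counts in the GLP-1 libraries, against 2412, 2508, 2429 and 2473 in the Control libraries. These groups did not overlap (log2 fold change -0.15 ± 0.03 SE, adjusted p = 0.00198), whereas with BMS-21 they did (log2 fold change -0.17 ± 0.07 SE, adjusted p = 0.0954; 0.00785 with the block). Pttg1 had 231, 258, 194 and 222 normalised counts in the GLP-1 libraries, against 303, 346, 253 and 297 in the Control libraries. It had the largest log2 fold change of the members with GLP-1, though the groups overlapped (log2 fold change -0.40 ± 0.09 SE, adjusted p = 0.0025); with BMS-21 it was -0.39 ± 0.19 (adjusted p = 0.157; 6.42e-05 with the block). Prc1, which crosslinks midzone microtubules, had 2116, 2219.9, 1935 and 2057 normalised counts in the GLP-1 libraries, against 2280.4, 2527, 2218 and 2204 in the Control libraries (log2 fold change -0.15 ± 0.05 SE, adjusted p = 0.02), with overlap and with the call lost without Control replicate 2 or GLP-1 replicate 3 or 4. Bub1 fell by 0.11 on the log2 scale (adjusted p = 0.0455), lost in 6 of 8 such fits.

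**Figure D4:**
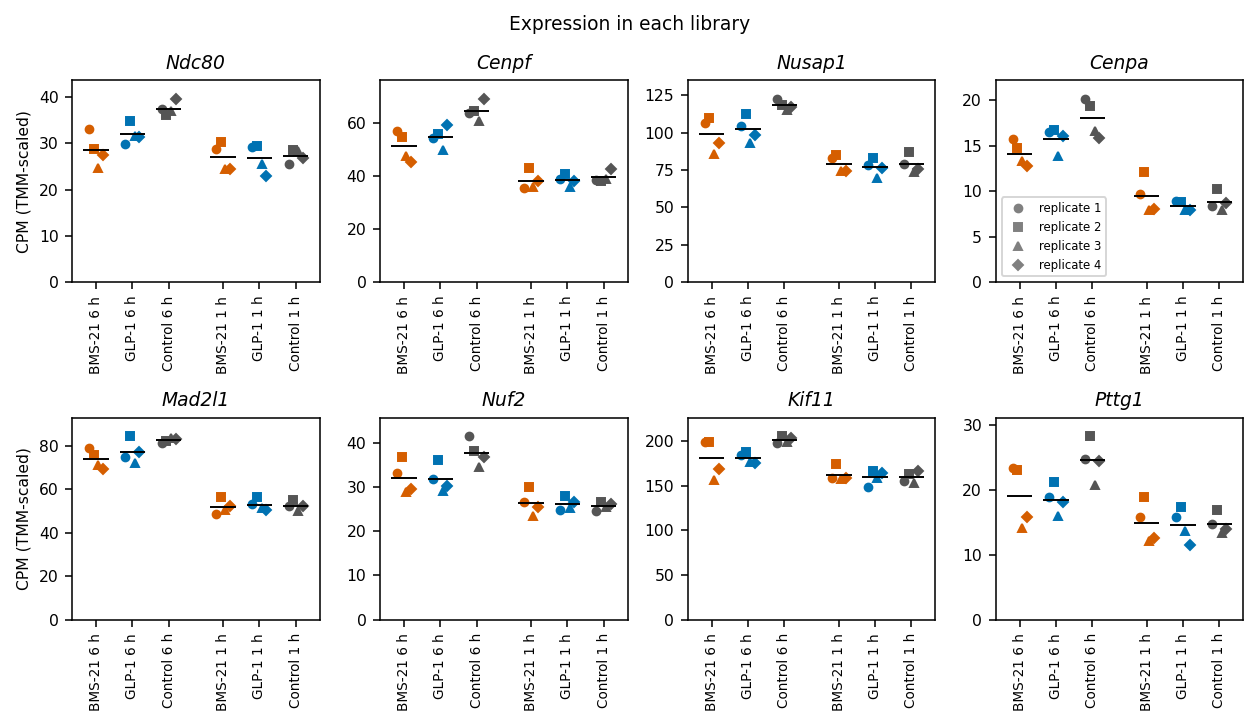
CPM (vertical axis, TMM-scaled, from 0) of 8 genes in every library, by group; marker shapes are replicate numbers and lines are group means. At 6 h the BMS-21 values of Ndc80 (24.6 to 33.1 CPM) and the GLP-1 values (29.9 to 34.8 CPM) lie below the Control values (36.0 to 39.6 CPM), while at 1 h the 3 groups overlap in all 8 genes.

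The 6 h response was not even over the replicate numbers. Averaged over the 40 members, log2 CPM with BMS-21 minus Control of the same number was -0.02 and -0.05 in replicates 1 and 2 and -0.25 and -0.24 in replicates 3 and 4; with GLP-1 it was -0.05 and -0.06, and -0.13 and -0.12. Fitted within replicates 3 and 4 alone, 30 members were lower with BMS-21 (15.8% of all genes) and 16 with GLP-1 (12.4%). Within replicates 1 and 2 alone, 5 were lower with BMS-21 (15.1%) and 7 with GLP-1 (14.5%), and Plk1 was higher with GLP-1. Ndc80, Cenpf, Nusap1, Cenpa and Nuf2 were lower with BMS-21 in both fits.

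The difference between the 2 pairs of replicates was tested as an interaction, an alternative added after seeing the data. With BMS-21 4 members passed and all were lower in replicates 3 and 4: Top2a, Kif11 and Ect2 (adjusted p = 0.019 each), the last a cytokinesis gene, and Smc2, a condensin subunit (adjusted p = 0.0314). Over all genes 13 were lower (0.103%) and 23 higher (0.182%). The members' median difference was -0.22, against 0.00 over all genes, and 39 of 40 were negative. With GLP-1 no member passed (limma, smallest adjusted p = 0.738, 0% of all genes), and the median was -0.09. At an unadjusted p under 0.05 there were 5 members with GLP-1 (6.32% of all genes) and 25 with BMS-21 (12.5% of all genes). Replicates 1 and 2 also stood apart from 3 and 4 between the libraries of every group, Control cells and the 1 h groups included. The labels do not say what set replicates 1 and 2 apart from 3 and 4, and its part in the response was not tested.

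**Figure D5:**
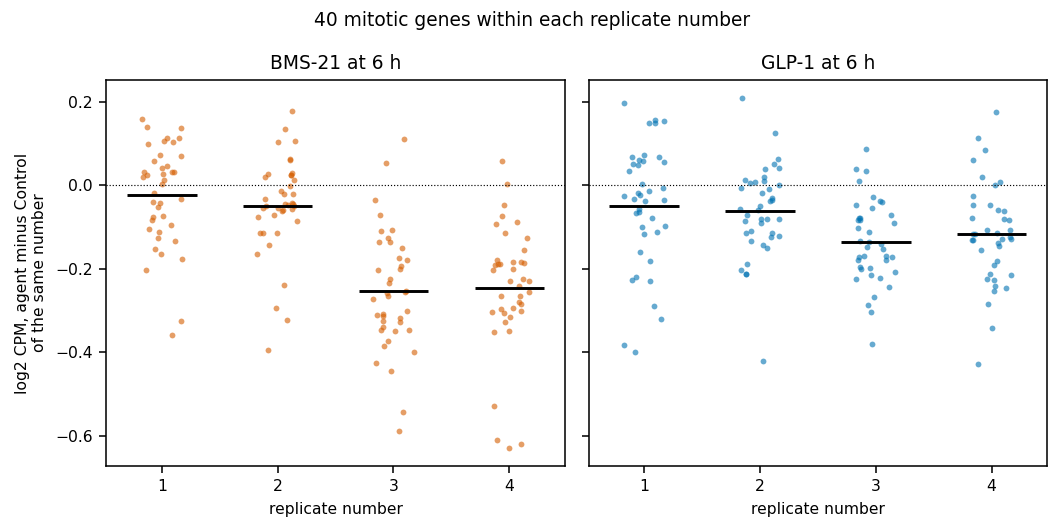
Log2 CPM with the agent minus Control of the same replicate number at 6 h (vertical axis) for each of the 40 genes (points; lines are means), for BMS-21 (left) and GLP-1 (right). The BMS-21 means are -0.02 and -0.05 in replicates 1 and 2, and -0.25 and -0.24 in replicates 3 and 4. The GLP-1 means are -0.05 and -0.06, and -0.13 and -0.12.

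Set against each other, the 2 agents gave no member that differed. At 6 h none of the 40 was higher or lower with BMS-21 than with GLP-1 (limma; 0.00792% of 12629 genes in each direction), and none with the replicate block (0.768% higher, 0.95% lower); at 1 h there was none either (0% of 12672). At each time 1 member had an unadjusted p under 0.05, a count given without its share of all genes, and edgeR and DESeq2 called none. The largest difference at 6 h was in Ndc80, with a log2 fold change of -0.17 (95% interval -0.33 to -0.02, adjusted p = 0.773), and 35 of 40 members were negative, with a median of -0.05. The widest bounds over the 40 members at 6 h were -0.37, for Kif2c, a kinesin that depolymerises microtubules, and 0.36, for Pttg1. The negative direction did not hold in every replicate number: the members' mean deviation in log2 CPM was 0.36 with BMS-21 and 0.34 with GLP-1 in replicate 1, 0.39 and 0.38 in replicate 2, 0.09 and 0.21 in replicate 3, and 0.14 and 0.27 in replicate 4.

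Whether a response at 6 h differed from that at 1 h was tested over all 24 libraries. With BMS-21 4 of the 40 members (10%) had a more negative response at 6 h than at 1 h (edgeR). None had a more positive one. Over all genes 11% had a more negative and 10.8% a more positive response. In this fit, without the replicate block, the members' share was no larger than that of all genes. The 4 members were Ndc80 (log2 fold change -0.38 ± 0.12 SE, adjusted p = 0.0169), Cenpf (log2 fold change -0.28 ± 0.10 SE, adjusted p = 0.0363), Cenpa (log2 fold change -0.44 ± 0.16 SE, adjusted p = 0.0429) and Nusap1 (log2 fold change -0.26 ± 0.10 SE, adjusted p = 0.0464). With the replicate block 14 members passed as lower (35%, against 14.6% of all genes). Without the block, leaving out 1 library gave 0 to 8. The count was 0 without BMS-21 replicate 2 of 1 h, 1 or 2 without any one of Control replicates 1 and 3 of 1 h, BMS-21 replicate 1 of 1 h, Control replicates 1, 2 and 4 of 6 h or BMS-21 replicates 3 and 4 of 6 h, 7 without BMS-21 replicate 3 of 1 h, and 8 without BMS-21 replicate 1 or 2 of 6 h. With GLP-1 no member passed (9.1% lower and 8.46% higher over all genes), and 4 had an unadjusted p under 0.05, a count given without its share of all genes. With the block 8 passed as lower with GLP-1 (13% of all genes) and 1, Plk1, as higher (12.3%). These tests share the Control libraries.

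Around the members, 21 of 75 other G2 and mitosis genes were lower and 2 higher with BMS-21 at 6 h, and 15 lower and 3 higher with GLP-1. Over all genes 16.8% were lower and 16.8% higher with BMS-21, and 15.6% lower and 16.2% higher with GLP-1. Fam64a, also named Pimreg, was lower, with log2 fold changes of -0.70 with BMS-21 and -0.51 with GLP-1. Ncapd3, of condensin II, was lower as well, with -0.22 and -0.24 in the same order of agents. The regulators had 5 lower and 1 higher of 25 with BMS-21, and 4 lower and 2 higher with GLP-1. These counts of lower regulators were near the shares of all genes. With the replicate block the regulators had 7 lower and 3 higher with BMS-21, and 6 lower and 4 higher with GLP-1. With the block the other G2 and mitosis genes had 25 lower and 2 higher with BMS-21, and 24 lower and 5 higher with GLP-1. In that fit 19.8% of all genes were lower and 19.8% higher with BMS-21, and 20.7% lower and 21.5% higher with GLP-1. Among the regulators Mybl2 was lower with both agents, at -0.32 with BMS-21 (adjusted p = 3.95e-05) and -0.29 with GLP-1 (adjusted p = 0.000643, limma). E2f1 was lower too, at -0.30 with BMS-21 and -0.36 with GLP-1, while Foxm1 had -0.03 with BMS-21 (adjusted p = 0.782) and 0.03 with GLP-1 (adjusted p = 0.659). Rb1, the pocket protein that restrains E2F factors, was higher, at 0.39 with BMS-21 and 0.31 with GLP-1. Cks2 had -0.23 with BMS-21 and -0.16 with GLP-1, both past the threshold, and Cdkn1a had -0.05 with BMS-21 and 0.11 with GLP-1, neither past it. Wee1 had -0.17 with BMS-21 (adjusted p = 0.00435) and -0.05 with GLP-1 (adjusted p = 0.431), and E2f7 had -0.26 (adjusted p = 0.0142) and -0.16 (adjusted p = 0.127). E2f4 had 0.15 with BMS-21 (adjusted p = 0.0546) and 0.17 with GLP-1 (adjusted p = 0.0234). Lin9, Lin54, E2f8 and Ube2c passed with neither agent, with -0.31, -0.02, -0.08 and 0.08 with BMS-21 and -0.18, -0.07, -0.10 and 0.14 with GLP-1. At 1 h none of the 25 regulators passed with either agent, while with the replicate block 1 was lower with each. It was Myc, with -0.90 with BMS-21 and -0.88 with GLP-1. Over all genes 5.51% were lower with BMS-21 and 5.16% with GLP-1 in that fit.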

How the data were processed

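RNA-seq of 24 INS-1 libraries was deposited as 6 tables of 26404 identifiers, each holding 2 groups of 4 libraries, so that every library is in 2 tables. The values are a signal made by the authors, read counts divided by a size factor per library within each table; the whole numbers of reads recovered from them came out whole for 100% of values within 0.001. Per the submitters' processing notes the tools were TopHat2 2.0.12, Bowtie2 2.2.3.0, SAMtools 0.1.19.0, Subread, DESeq and DESeq2 1.6.3, and the build was Rnor 5.0; their settings are not given in the sources used here. The library kit does not mark strand, so reads of a gene and of an overlapping antisense gene cannot be told apart.

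Agents were compared at one time within a table with limma 3.58.1 (R 4.3.3; trend and robust options) on log2(normalised count + 1), after leaving out genes whose mean was under 10. Times, and responses between times, were compared with edgeR 4.0.16 (quasi-likelihood test, TMM) on the recovered reads of all 24 libraries, a fit that shares 1 estimate of the spread; 13114 genes passed its filter on low counts. Adjusted p is Benjamini-Hochberg over all genes tested, with a threshold of 0.05. On the recovered reads edgeR called 2127 genes higher and 2150 lower with BMS-21 at 6 h, and 2048 higher and 1950 lower with GLP-1. Alternatives were pseudocounts of 0.5 and 5, other filters on low values, scaling by library totals, DESeq2 1.42.0, a replicate block, replicates 1 and 2 or 3 and 4 alone, and each library left out. The scripts were tested on simulated data.

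Replicate numbers in the labels were checked for pairing: after removal of group means, the 24 correlations between same-numbered libraries of compared groups were 0.119 to 0.406. All exceeded 0.1, the bound set for giving the fit with the replicate block. Differently numbered libraries of compared groups were not correlated. The split of the replicates described below could also give positive values, so this check cannot show pairing by number. The block fit therefore assumes such pairing. It is given for the counts of members, of regulators and of other G2 and mitosis genes, and for many of the genes named. No 2 libraries of a group agreed within sampling noise. In every group replicates 1 and 2 agreed more closely with each other than with 3 or 4, and replicates 3 and 4 likewise. In Control cells at 6 h chi-squared over its degrees of freedom was 1.30 between replicates 1 and 2 and 1.49 between 3 and 4. Across these pairs it was 3.04 to 3.25. A count of 0 allows up to 3 reads, or 0.228 to 0.281 reads in 1000000, counting error only.

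The members, the lists of other G2 and mitosis genes, regulators, S phase genes and markers, and the tests were chosen with earlier results of these data known. Members called are described by role, the 8 with the smallest adjusted p by library; of the other lists, counts, the genes with the smallest adjusted p and a set of regulators are named. Anln carries its symbol in 4 of the 6 tables and was matched by identifier in the rest. RefSeq promoter windows use build GRCr8, another build than the tables, and were matched by symbol only; 4 members had none in the table used.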

Additional observations from a re-analysis of the deposited data

Results flagged for a closer look

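In 3 of 90 gene and group combinations checked (15 genes, 6 groups of 4 libraries) 1 library stood apart from the other 3; chance sets about 1 in 20 groups apart in this way. Kif11 had 174 CPM in BMS-21 replicate 2 at 1 h, against 157 to 158 CPM in the other 3 libraries. Prc1 had 114 CPM in the same library, against 91.2 to 95.0 CPM. Cenpf had 42.7 CPM in Control replicate 4 at 1 h, against 38.3 to 38.8 CPM.

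For 4 genes the BMS-21 response at 6 h differed from that at 1 h by a test of the difference itself (edgeR, adjusted p 0.0169 to 0.0464). In this fit, without the replicate block, these were 10% of the 40 members, no larger a share than the 11% of all genes with a more negative response at 6 h. With the block 35% of the members had a more negative response at 6 h, against 14.6% of all genes. The difference in log2 was -0.44 for Cenpa, -0.38 for Ndc80, -0.28 for Cenpf and -0.26 for Nusap1. All 4 calls were lost without BMS-21 replicate 2 of 1 h, the library that stood apart in Kif11 and Prc1.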

How the results depend on the processing

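Alternatives were followed per gene for members that passed with or without the replicate block or came close to it. Of these values 2830 kept their direction and their side of the threshold, 128 came to pass it, 99 ceased to, and 2 changed sign: in BMS-21 against Control at 6 h, replicates 1 and 2 alone gave log2 fold changes of 0.0077 for Ccna2 and 0.0115 for Bub1. Over all 40 members, replicates 1 and 2 alone gave the other sign for 14 with BMS-21 and 10 with GLP-1 at 6 h, none of them past the threshold in either fit. The counts of members moved under 5 kinds of setting. Scaling by library totals gave 17 lower with BMS-21 (24.3% of all genes) and 19 with GLP-1 (23.4%) at 6 h, and 1 lower with GLP-1 at 1 h (3.98%). The replicate block, which assumes pairing by number, gave 21 lower with BMS-21 (19.8% of all genes) and 16 with GLP-1 (20.7%) at 6 h. For GLP-1 at 1 h it gave 1 higher (6.74%) and 2 lower (5.16%). In the difference between times it gave 14 lower with BMS-21 (14.6%), and with GLP-1 1 higher (12.3%) and 8 lower (13%). It changed no count of the rise with time by over 1.5 times. Replicates 1 and 2 alone gave 5 lower with BMS-21 at 6 h (15.1% of all genes), 1 higher with BMS-21 at 1 h (4.02%) and 1 higher with GLP-1 at 6 h (16.2%). In the GLP-1 difference between times they gave 1 higher (7.43%) and 2 lower (7.76%). Replicates 3 and 4 alone gave 30 lower with BMS-21 (15.8% of all genes) and 16 with GLP-1 (12.4%) at 6 h. In the difference between times they gave 13 lower with BMS-21 (8.37%) and 3 with GLP-1 (6.3%). The difference between these pairs of replicates, chosen after seeing the data, had 4 members lower with BMS-21 (0.103% of all genes) and 0 with GLP-1 (0%). The causes were not tested. Leaving out 1 library gave 5 to 19 lower members with BMS-21 at 6 h, 6 to 13 lower and 0 to 1 higher for GLP-1 at 6 h, 0 to 1 lower with GLP-1 at 1 h, 36 to 38 higher at 6 h than at 1 h with BMS-21, 38 to 40 with GLP-1 and 39 to 40 in Control cells. For the difference between times it gave 0 to 8 lower and 0 to 1 higher with BMS-21, and 0 to 1 in each direction with GLP-1. In the other comparisons leaving out 1 library gave 0 members throughout. Pseudocounts, filters, DESeq2 and edgeR moved none of these counts by over 1.5 times. With 4 libraries a group, the 95% intervals of BMS-21 against GLP-1 at 6 h reached -0.37 and 0.36 in log2.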

Other observations

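Genes of S phase and DNA replication, a list measured for comparison with the mitotic genes, were higher at 6 h than at 1 h too. Of 28 measured, 21 were higher with BMS-21 (median log2 fold change 0.31), 20 with GLP-1 (median 0.31) and 25 in Control cells (median 0.39), and none was lower. Of all genes 30.2% were higher with BMS-21, 29.2% with GLP-1 and 26.1% in Control cells. The median of the mitotic members was 0.62 with BMS-21, 0.66 with GLP-1 and 0.70 in Control cells. In Control cells Mcm5 and Mcm3, subunits of the replicative helicase, rose by 0.77 and 0.60, Chaf1a, a histone chaperone of replicated DNA, by 0.84, and Rrm1, a subunit of ribonucleotide reductase, by 0.54.

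After 6 h 15 of the 28 were lower with BMS-21 than in Control cells and none higher, and 13 were lower and 1 higher with GLP-1. Over all genes 16.8% were lower and 16.8% higher with BMS-21, and 15.6% lower and 16.2% higher with GLP-1. Mcm2, a helicase subunit, had a log2 fold change of -0.22 with BMS-21 (limma, adjusted p = 3.27e-05) and -0.19 with GLP-1. Tyms, which makes thymidylate, had -0.36 with BMS-21 and -0.30 with GLP-1. At 1 h 1 was higher and 1 lower with BMS-21, and 1 was higher and none lower with GLP-1. Over all genes 3.54% were higher and 2.37% lower with BMS-21, and 4.17% and 2.41% with GLP-1. The counts of genes higher were thus near the shares of all genes. With the replicate block 3 were lower with BMS-21 and 2 with GLP-1 (5.51% and 5.16% of all genes). Without the block the one lower was Mcm7, with -0.14 with BMS-21 (adjusted p = 0.0331), and Pcna, the sliding clamp of replication, was the one higher with both agents, at 0.13 with BMS-21 (adjusted p = 0.0303) and 0.16 with GLP-1 (adjusted p = 0.00431). Both comparisons use the same Control libraries.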
